A study of Rattus norvegicus with 42 samples.

Results

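The 9 complement genes described here are C1qa, C1qb and C1qc (the 3 chains of C1q), C4b, C3, Cfb (factor B), Cfi (factor I), C3ar1 and C5ar1 (the receptors of C3a and C5a). They were taken by symbol from both deposited count tables, which share 30044 gene symbols, and all 9 passed the low-count filter in every fit. The libraries came from lung pieces of 42 male Fischer rats (F344/DuCrl), 1 library per rat. Every rat ate a regular diet (18% fat by energy) or a high-fat diet (60%), breathed air or crystalline silica dust in a whole-body chamber (15 mg/m3, 6 hours daily, 5 days) after 2 weeks on the diet, and stayed on its diet until the lung was taken 3 or 9 months after exposure. At 3 months there were 4 regular-diet air rats and 5 rats in each of the other groups (regular diet with silica, and high-fat diet with air or silica). At 9 months the regular-diet silica group had 5 rats and the other 3 groups had 6 each. The rats were bought at 3 months of age and housed 3 per cage. The labels tie no rat to a cage, so the p-values measure the spread between rats, which may include cage mates.

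Complement is a cascade of plasma and tissue proteins that marks particles and damaged cells for uptake. C1q binds immune complexes and altered surfaces and starts the classical pathway, in which C4b and C2 form the enzyme that cleaves C3. Factor B joins bound C3b to form the alternative pathway enzyme that amplifies C3 cleavage, factor I degrades C3b and C4b, and the released fragments C3a and C5a act on C3ar1 and C5ar1 of phagocytes and other cells. The liver supplies most circulating complement, whereas C1q comes largely from macrophages, and lung epithelial cells and macrophages also make C3 and factor B.

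The promoters of 3 members are shown because C3 and Cfi were the members with the largest responses to silica and C1qa stands for the C1q chains, whose responses were smaller and of similar size at both times. The sequences come from RefSeq (build GRCr8), run 5′ to 3′ on the gene's strand from 250 bases before to 50 bases after the gene start, and have capitals only at a motif match. RefSeq promoters were matched for 6 of the 9 members (C3, Cfi, C1qa, C1qb, C4b and C3ar1).
C3 (chr9:2201290-2201589, minus strand): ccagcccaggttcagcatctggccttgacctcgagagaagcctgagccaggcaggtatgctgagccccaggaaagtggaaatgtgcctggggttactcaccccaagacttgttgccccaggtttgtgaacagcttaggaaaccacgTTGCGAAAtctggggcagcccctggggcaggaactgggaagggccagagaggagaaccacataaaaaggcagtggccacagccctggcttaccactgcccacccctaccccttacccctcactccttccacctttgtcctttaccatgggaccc
Cfi (chr2:221063066-221063365, plus strand): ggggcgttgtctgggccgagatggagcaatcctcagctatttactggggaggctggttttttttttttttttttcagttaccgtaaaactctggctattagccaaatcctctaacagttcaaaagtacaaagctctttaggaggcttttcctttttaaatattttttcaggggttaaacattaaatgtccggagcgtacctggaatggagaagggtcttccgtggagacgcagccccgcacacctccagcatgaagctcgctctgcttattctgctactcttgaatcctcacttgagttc
C1qa (chr5:154419884-154420183, minus strand): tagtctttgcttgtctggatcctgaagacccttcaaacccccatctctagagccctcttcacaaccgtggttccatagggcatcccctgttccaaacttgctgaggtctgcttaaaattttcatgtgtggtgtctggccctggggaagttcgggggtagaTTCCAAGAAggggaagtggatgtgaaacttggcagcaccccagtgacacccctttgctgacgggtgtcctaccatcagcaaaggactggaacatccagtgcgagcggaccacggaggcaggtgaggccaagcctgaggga
Both strands were searched for 5 short motifs, and 3 matches were found in the 6 promoters. The C3 window holds TTGCGAAA, a match to the C/EBP-like TTGCNNAA that begins at position -104 from the gene start, and 10.5% of the 27457 RefSeq promoters searched hold that motif. The C1qa window holds TTCCAAGAA, a match to the STAT-like TTCNNNGAA at position -90 (8.68% of promoters), and the C3ar1 window holds a reverse-strand match to the kappa B-like GGGNNTTTC at position -63 (4.52% of promoters). The PU.1-like GAGGAAG (12.4% of promoters) and the interferon response-like GAAANNGAA (9.5%) had no match in these 6 windows, and no match was found in the Cfi window shown.

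The libraries held 5143424 to 8259635 counts at 3 months and 3078216 to 8319382 at 9 months, and levels are given as CPM, a gene's count relative to its library's total, after TMM scaling of all libraries together. Lung markers were abundant in every group (the mean summed level of Sftpc, Sftpb, Ager, Scgb1a1 and Cldn18 was 13630 to 18110 CPM). At 9 months the libraries also differed in ways other than the outcome: the ribosomal RNA genes Rnr1 and Rnr2 took 0.375 to 2.29% of counts in regular-diet air rats, 2.60 to 5.35% in regular-diet silica rats, 4.62 to 7.19% in high-fat air rats and 7.29 to 7.85% in high-fat silica rats. The gene symbol C4a-2 had 0 counts in all 6 regular-diet air rats and in 2 of the 5 regular-diet silica rats (titled RDS_SO_09_115_Lu and RDS_SO_09_117_Lu), but 21 to 174 counts in the other 15 rats of that time. The labels name no batch, and results that rest on these groups are given below with the values for this split.

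Silica raised almost all of the 9 members, at both times and on both diets. The members were chosen with earlier results of these data known, and the other complement genes moved less uniformly (below). At 3 months 8 of the 9 members rose on the regular diet (edgeR quasi-likelihood test, adjusted p below 0.05 over 15234 genes), where 10.2% of all genes tested were called higher, and 8 of 9 rose on the high-fat diet, where 9.23% of all genes were called higher. At 9 months 9 of 9 rose on each diet, against 24.5% of 15276 genes called higher on the regular diet and 26.7% on the high-fat diet. The median log2 fold change of the members was 0.74 and 0.83 at 3 months and 1.25 and 1.50 at 9 months (regular and high-fat diet), and that of all genes tested lay between -0.01 and 0.00 in all 4 comparisons. No member had a negative fold change. The groups of rats did not overlap, with every silica rat above every air rat, for 8 of 9 members on each diet at 3 months (8.66% and 7.18% of 15759 genes on the regular and high-fat diet), for 8 of 9 on the regular diet at 9 months (13.4% of genes) and for 9 of 9 on the high-fat diet at 9 months (16.2% of genes). In whole lung, more cells of a type and more RNA per cell cannot be told apart.

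**Figure D1:**
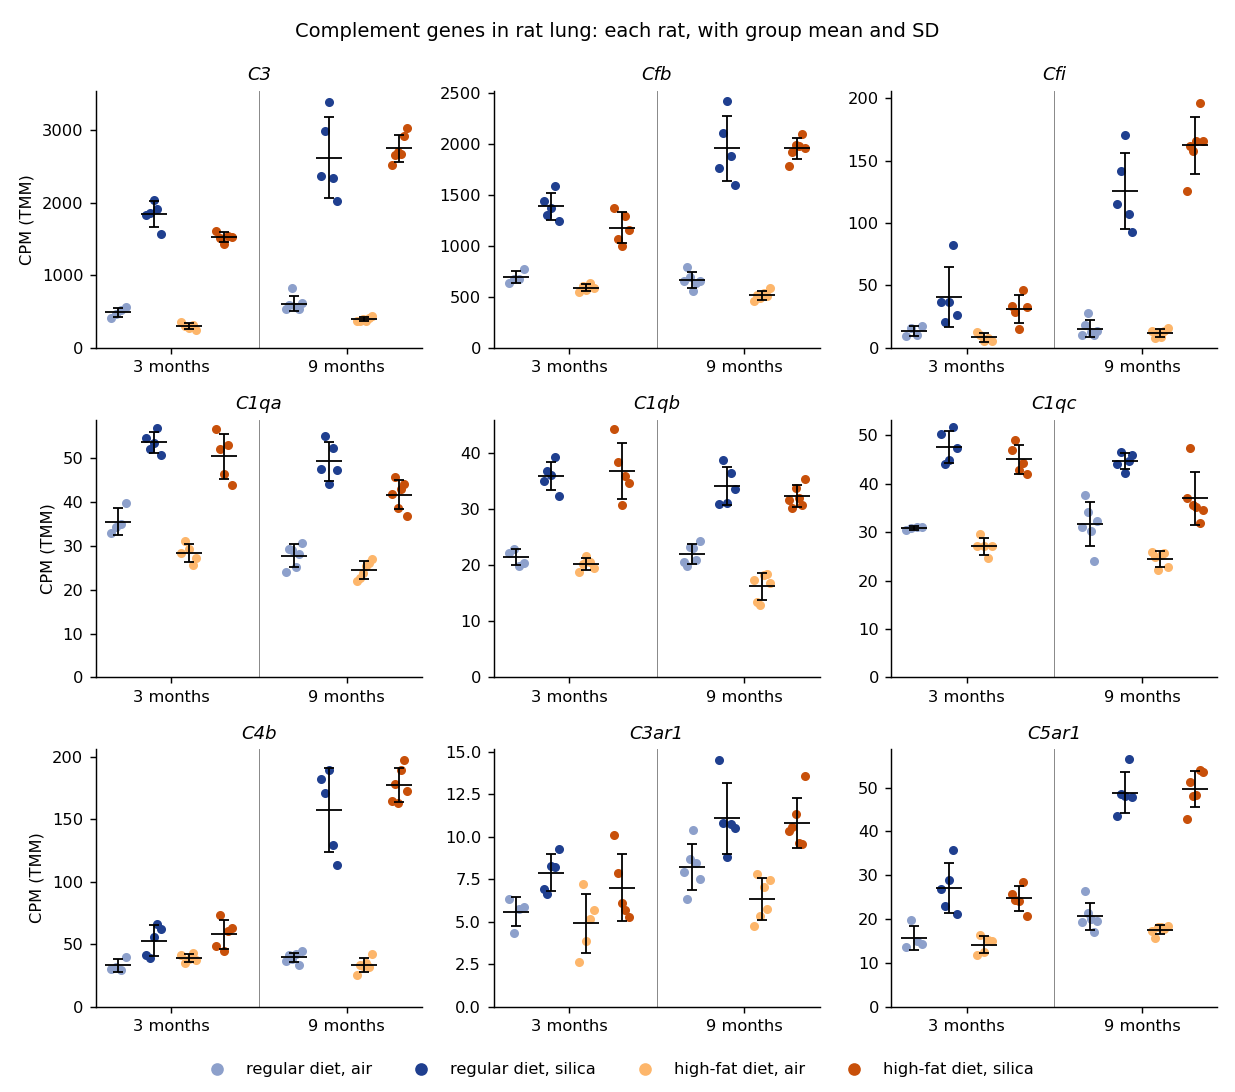
Each panel plots the level of a complement gene in CPM (TMM-scaled, linear axis from 0) in each of the 42 rats, by diet, exposure and time; black bars are the group mean and SD. The silica rats sit above the air rats of the same diet and time in most panels, and the levels of Cfi and C4b with silica are higher at 9 than at 3 months.

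The C1q chains, which recognise the target, rose by 0.50 to 1.00 on the log2 scale in the 4 silica comparisons. C1qa was at 33.0, 34.4, 34.9 and 39.9 CPM in the 4 regular-diet air rats and at 50.8, 52.2, 53.6, 54.7 and 57.0 CPM in the 5 regular-diet silica rats at 3 months. The high-fat air rats were at 25.7, 27.4, 28.4, 29.3 and 31.2 CPM and the high-fat silica rats at 43.9, 46.5, 52.2, 53.1 and 56.7 CPM. The groups did not overlap on either diet, and the log2 fold change was 0.59 ± 0.08 (SE, adjusted p = 1.87e-05) on the regular and 0.83 ± 0.08 (adjusted p = 5.23e-08) with the high-fat diet. By 9 months C1qa was at 24.1 to 30.7 CPM (median 28.6, n = 6) in regular-diet air rats and at 44.1, 47.5, 47.5, 52.5 and 55.0 CPM with silica, a log2 fold change of 0.83 ± 0.08 (edgeR adjusted p = 1.89e-09). C1qb, from the same gene cluster, rose by 0.74 and 0.87 at 3 months and by 0.63 and 1.00 at 9 months (regular and high-fat diet). C1qc rose by 0.62 and 0.74 at 3 months and by 0.50 and 0.58 at 9 months. The group patterns of C1qa, C1qb and C1qc were closer to each other than those of any other pair of members. After removing each gene's mean over the 8 groups, the chains' group means of log2 CPM differed by a root mean square of 0.12 in each of the 3 pairs. The value was 0.25 for the next closest pair, Cfb and C5ar1. These differences are not scaled to the size of a pattern, whose root mean square was 0.43 for C1qb, 0.73 for Cfb and 0.65 for C5ar1.

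C4b, the classical pathway component that C1q-bound C1s cleaves, rose modestly at 3 months and several-fold at 9 months. At 3 months it was at 29.7, 30.2, 32.0 and 40.1 CPM in regular-diet air rats and at 39.0, 41.6, 56.1, 61.9 and 66.2 CPM in regular-diet silica rats, so that 4 of the 5 silica rats lay above all air rats. The log2 fold change there was 0.68 ± 0.16 (edgeR adjusted p = 0.00463), and on the high-fat diet it was 0.57 ± 0.14 (adjusted p = 0.00686). At 9 months the 6 regular-diet air rats were at 33.6 to 44.2 CPM (median 40.0) and the 5 silica rats at 113.8, 129.1, 171.2, 181.9 and 189.6 CPM. On the high-fat diet the air rats were at 25.5 to 41.9 CPM (median 32.6) and the silica rats at 163.0 to 197.3 CPM (median 175.2). The lowest silica rat was thus above the highest air rat on both diets, and the log2 fold changes were 1.99 ± 0.11 (adjusted p = 8.36e-13) and 2.42 ± 0.11 (adjusted p = 6.13e-15).

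C4 genes are near-identical copies, so the division of reads among C4b, C4a and C4a-2 is uncertain. RefSeq itself gives C4b both as a gene's symbol and as an older name of C4a. C4a had at most 1 count in any rat, and C4a-2 had 0 counts in 16 of the 19 rats at 3 months and at most 5 in the others. At 9 months C4a-2 carried 8.21 to 19.7% of the summed C4 counts in high-fat air rats, 8.17 to 11.1% in high-fat silica rats and 0 in regular-diet air rats. In the regular-diet silica group it had 0 counts in those same 2 rats and 174, 153 and 96 counts in RDS_SO_09_118_Lu, RDS_SO_09_119_Lu and RDS_SO_09_120_Lu, whose C4b counts were 1226, 949 and 573. With C4a, C4a-2 and C4b summed, the silica effects were 0.68 and 0.57 at 3 months and 2.11 and 2.36 at 9 months on the log2 scale, and all 4 were called. The uncalled diet values at 9 months moved more: the difference of the silica effects between diets went from 0.43 for C4b to 0.25 for the sum (edgeR adjusted p = 0.475), and the diet difference in air from -0.25 to -0.0488 (adjusted p = 0.807).

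**Figure D2:**
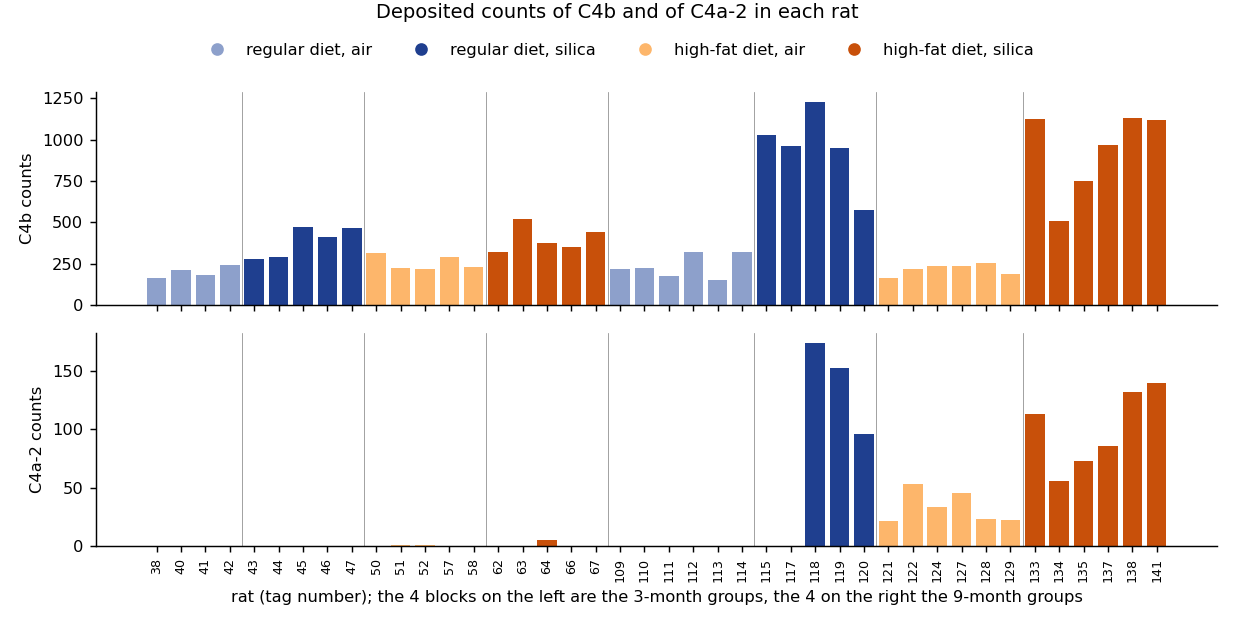
Bars give the deposited counts of C4b (top) and C4a-2 (bottom) in each rat, in tag order within the 8 groups, not scaled to depth. C4b counts are high in all 9-month silica rats, whereas C4a-2 has 0 counts from rat RDA_SO_09_109_Lu to rat RDS_SO_09_117_Lu and counts in every rat from RDS_SO_09_118_Lu on.

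C3, the protein on which all pathways converge, had one of the largest responses to silica. At 3 months it was at 410.7, 461.8, 527.2 and 558.3 CPM in regular-diet air rats and at 1565, 1831, 1854, 1918 and 2040 CPM with silica. High-fat air rats were at 251.3, 273.5, 306.0, 313.6 and 350.0 CPM and high-fat silica rats at 1425, 1519, 1532, 1544 and 1604 CPM. Every silica rat was thus far above every air rat of its diet, with log2 fold changes of 1.91 ± 0.10 (3.75-fold, edgeR adjusted p = 7.93e-12) and 2.35 ± 0.09 (5.11-fold, adjusted p = 1.13e-13). At 9 months the air rats were at 531.0 to 819.2 CPM (median 577.6) on the regular diet and 364.1 to 443.5 CPM (median 386.0) on the high-fat diet. The silica rats were at 2016, 2336, 2369, 2993 and 3385 CPM on the regular diet and 2517 to 3027 CPM (median 2679) on the high-fat diet. The gap was again complete, at 2.11 ± 0.11 (4.30-fold, adjusted p = 2.37e-13) and 2.80 ± 0.11 (6.96-fold, adjusted p = 6.96e-16).

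Cfb, which supplies the catalytic part of the alternative pathway enzyme, was at 634.4, 678.5, 680.5 and 776.3 CPM in regular-diet air rats at 3 months and at 1243, 1301, 1376, 1439 and 1588 CPM with silica. Its log2 fold change was 1.00 on both diets at 3 months (SE 0.09 and 0.08). At 9 months regular-diet air rats were at 556.5 to 790.3 CPM (median 660.2) and silica rats at 1602, 1767, 1885, 2113 and 2428 CPM, and the fold change was 1.56 ± 0.09 on the log2 scale. On the high-fat diet it was 1.92 ± 0.09, with air rats at 462.2 to 591.1 CPM and silica rats at 1782 to 2105 CPM, again without overlap.

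Cfi, the protease that inactivates C3b and C4b, had the largest fold change of the 9 members at 9 months. At 3 months it was at 9.52, 10.5, 15.6 and 17.8 CPM in regular-diet air rats and at 21.0, 26.7, 36.7, 37.0 and 82.1 CPM in silica rats, of which rat 46 was the highest. High-fat air rats were at 5.18, 5.30, 7.80, 10.3 and 13.0 CPM and high-fat silica rats at 15.3, 28.3, 33.0, 33.3 and 46.6 CPM. The groups did not overlap but the spread was wide, and the log2 fold changes were 1.57 ± 0.36 (edgeR adjusted p = 0.00462) and 1.85 ± 0.37 (adjusted p = 0.00116). At 9 months air rats were at 9.95 to 27.8 CPM (median 13.0) on the regular diet and 7.65 to 16.2 CPM (median 12.9) on the high-fat diet. Silica rats were at 93.1, 107.4, 114.9, 141.7 and 170.4 CPM on the regular diet and 125.7 to 196.4 CPM (median 163.7) on the high-fat diet. These were differences of 3.05 ± 0.20 (8.27-fold, adjusted p = 6.61e-12) and 3.76 ± 0.20 on the log2 scale (13.5-fold, adjusted p = 5.05e-14).

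The receptors differed from each other. C5ar1, the C5a receptor of neutrophils and macrophages, rose by 0.76 ± 0.15 and 0.81 ± 0.14 at 3 months and by 1.25 ± 0.09 and 1.50 ± 0.08 at 9 months (regular and high-fat diet). Its levels were 13.6, 14.4, 15.0 and 19.8 CPM in regular-diet air rats and 21.1, 22.9, 26.8, 28.8 and 35.7 CPM in silica rats at 3 months, and 17.2 to 26.4 CPM (median 19.7) against 43.4, 47.9, 48.1, 48.5 and 56.4 CPM at 9 months. No air rat reached the lowest silica rat of its diet and time. C3ar1, the C3a receptor, had the fewest counts (20 to 88 per library) and had the least certain response. At 3 months its log2 fold change was 0.51 ± 0.22 (edgeR adjusted p = 0.124) with the regular and 0.53 ± 0.22 (adjusted p = 0.102) with the high-fat diet. On the regular diet all 5 silica rats lay above all 4 air rats at 3 months, although the difference was not called. On the high-fat diet 2 of the 5 silica rats lay above all air rats. C3ar1 rose at 9 months by 0.42 ± 0.14 (adjusted p = 0.0186) and 0.79 ± 0.14 (adjusted p = 5.69e-05). In the regular-diet groups at 9 months the air rats were at 6.32 to 10.4 CPM (median 8.20) and the silica rats at 8.81, 10.5, 10.7, 10.8 and 14.5 CPM, so the groups overlapped. Without rat RDS_SO_09_115_Lu that difference was 0.31 with an edgeR adjusted p of 0.0833.

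**Figure D3:**
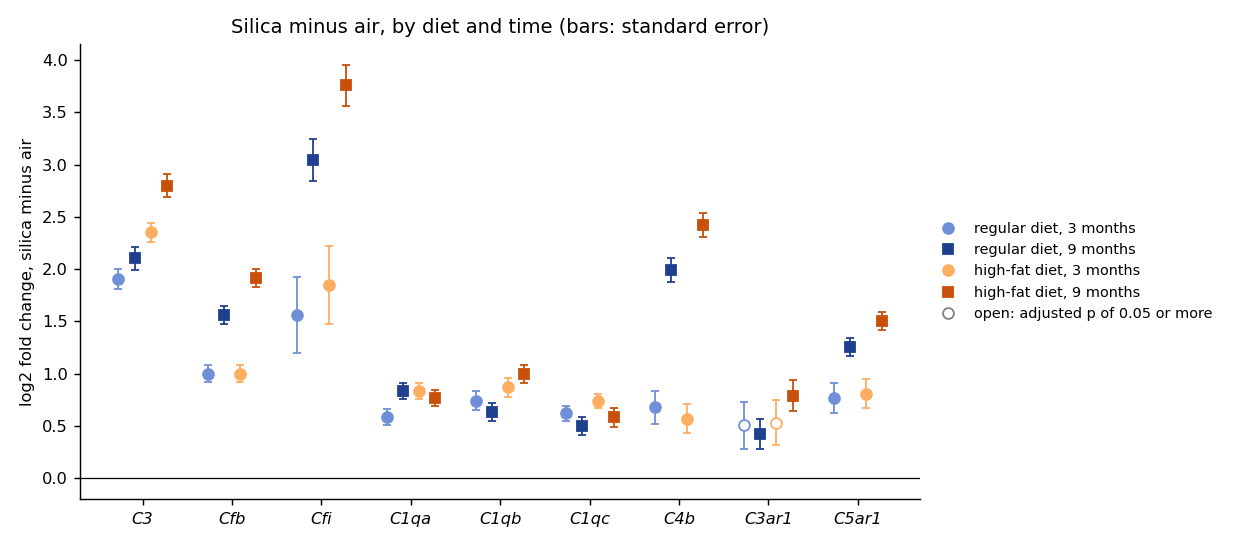
Points give the log2 fold change (silica minus air) of each complement gene from edgeR, with its standard error as bars, for the 2 diets at 3 and 9 months; open points have an adjusted p of 0.05 or more. All points lie above 0, from 0.42 to 3.76, and the 2 open points are C3ar1 at 3 months.

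The 9-month silica effects on the regular diet were also taken apart by the split in C4a-2 counts, an analysis chosen after the data were seen. With the 2 silica rats at 0 counts of C4a-2 set against the 6 air rats, all at 0, 9 of 9 members rose, with log2 fold changes of 2.14 for C3, 1.55 for Cfb, 3.08 for Cfi and 2.16 for C4b. With the other 3 silica rats in their place, 8 of 9 rose (2.08, 1.56, 3.02 and 1.86 for the same genes), and C3ar1 was at 0.27 (edgeR adjusted p = 0.183). No air rat of this diet and time has C4a-2 counts, so the second set compares across the split, and there exposure and this difference between libraries cannot be told apart. The first set still differs in ribosomal share, at 2.88 and 2.60% in the 2 silica rats against 0.375 to 2.29% in the air rats. On the high-fat diet at 9 months the share was 4.62 to 7.19% in air and 7.29 to 7.85% with silica. Exposure and ribosomal share therefore cannot be told apart on either diet at 9 months. With the share as a covariate every member was still called higher on both diets. The shares of air and silica rats did not overlap, so that fit does not separate them.

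The silica effect was larger at 9 than at 3 months for Cfb, Cfi and C4b on both diets. In 1 fit of all 42 libraries, the difference of the silica effects between times was positive and called for 3 of 9 members on the regular diet (3.71% of 15759 genes were called higher) and for 5 of 9 on the high-fat diet (6.55% of genes). On the regular diet it was 1.31 ± 0.20 for C4b (adjusted p = 7.2e-05), 0.55 ± 0.13 for Cfb (adjusted p = 0.00587) and 1.48 ± 0.43 for Cfi (adjusted p = 0.0276). The Cfi call was lost in 4 of 20 refits that left out 1 rat (adjusted p of up to 0.103), namely without air rats 40 or 42 or silica rats 47 or RDS_SO_09_118_Lu. It was also lost with the ribosomal share as a covariate (1.58, adjusted p = 0.112). On the high-fat diet it was 1.85 ± 0.19 for C4b (adjusted p = 1.79e-08), 1.90 ± 0.43 for Cfi (adjusted p = 0.00354), 0.92 ± 0.12 for Cfb (adjusted p = 3.49e-06), 0.70 ± 0.16 for C5ar1 (adjusted p = 0.00364) and 0.45 ± 0.15 for C3 (adjusted p = 0.0403). The C3 difference is at the edge of the threshold: leaving out 1 rat gave 0.36 to 0.48 and ended the call in 13 of 22 refits (C3 adjusted p of up to 0.106), and it was also lost without the low-count filter (0.43, adjusted p = 0.0598). The C1q chains did not pass this test on either diet. Their differences between times ran from -0.13 to 0.24 on the regular and from -0.16 to 0.13 on the high-fat diet, with standard errors of 0.10 to 0.13. Time since exposure, age and the table a library was counted in cannot be told apart in this comparison of times. The mean ribosomal share was 0.957 to 1.26% in the 3-month groups. At 9 months the share was higher in silica than in air rats on both diets, without overlap. That difference between libraries, and on the regular diet the split in C4a-2 counts, cannot be told apart from time here either.

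In rats that breathed air, the high-fat diet lowered some complement genes, and C3 most clearly. At 3 months 2 of 9 members were called lower (1.3% of genes were called lower): C3 fell by 0.71 ± 0.09 on the log2 scale (edgeR adjusted p = 4.91e-04) and C1qa fell by 0.33 ± 0.08 (adjusted p = 0.0366). The 5 high-fat rats were below all 4 regular-diet rats for C3, Cfb, C1qa and C1qc, 4 of 9 members, against 4.37% of genes. The C1qa call was lost in 7 of 9 refits without 1 rat (all but those without rats 38 and 51), with adjusted p of up to 0.155, whereas the C3 call was kept in all of these. At 9 months 4 of 9 members were called lower (7.06% of genes): C3 fell by 0.63 ± 0.11 (adjusted p = 2.53e-04), C1qb by 0.45 ± 0.09 (adjusted p = 0.0013), C1qc by 0.37 ± 0.09 (adjusted p = 0.00478) and Cfb by 0.36 ± 0.08 (adjusted p = 0.00438). The groups did not overlap for C3 and C1qb (2 of 9, against 2.7% of genes). The other members had negative but uncalled differences at 9 months, from -0.39 for C3ar1 to -0.18 for C1qa. At 9 months this diet comparison sets rats with 0 counts of C4a-2 and a low ribosomal share against rats with C4a-2 counts and a high share, without overlap, so diet and this difference between libraries cannot be told apart. With the ribosomal share as a covariate 0 of 9 members were called by edgeR, and C3 was at -0.27 (adjusted p = 0.902); the covariate also reduced the genes called in all from 2325 to 1. At 3 months the ribosomal share was 0.988 to 1.66% in regular-diet and 0.605 to 1.24% in high-fat air rats, and with it as a covariate 1 of 9 members, C3, was still called.

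With silica, the test called no member between the diets. The count was 0 of 9 members at 3 months (edgeR, 2 of 9 with an unadjusted p below 0.05, 0.702% of all genes called in either direction) and 0 of 9 at 9 months (3 of 9 with an unadjusted p below 0.05, 3.52% of all genes called). No member separated the diets without overlap at either time. The C3 difference with silica was -0.27 ± 0.09 at 3 months (adjusted p = 0.173) and 0.07 ± 0.11 at 9 months (adjusted p = 0.807). C1qa and C1qc at 9 months came nearest to the threshold, at -0.25 ± 0.07 (adjusted p = 0.0595) and -0.29 ± 0.09 (adjusted p = 0.063). DESeq2 called both of them and limma voom called C1qc. Without high-fat silica rat HFS_SO_09_134_Lu edgeR called both (C1qc -0.37, adjusted p = 0.0114; C1qa -0.28, adjusted p = 0.0406), and without regular-diet silica rat RDS_SO_09_118_Lu it called C1qa (-0.29, adjusted p = 0.0443). The 9-month comparison sets ribosomal shares of 2.60 to 5.35% against 7.29 to 7.85%, without overlap, and the 2 silica rats at 0 counts of C4a-2 are all on the regular diet, so diet and this difference between libraries cannot be told apart here either. With the ribosomal share as a covariate the genes called in all went from 537 to 1.

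**Figure D4:**
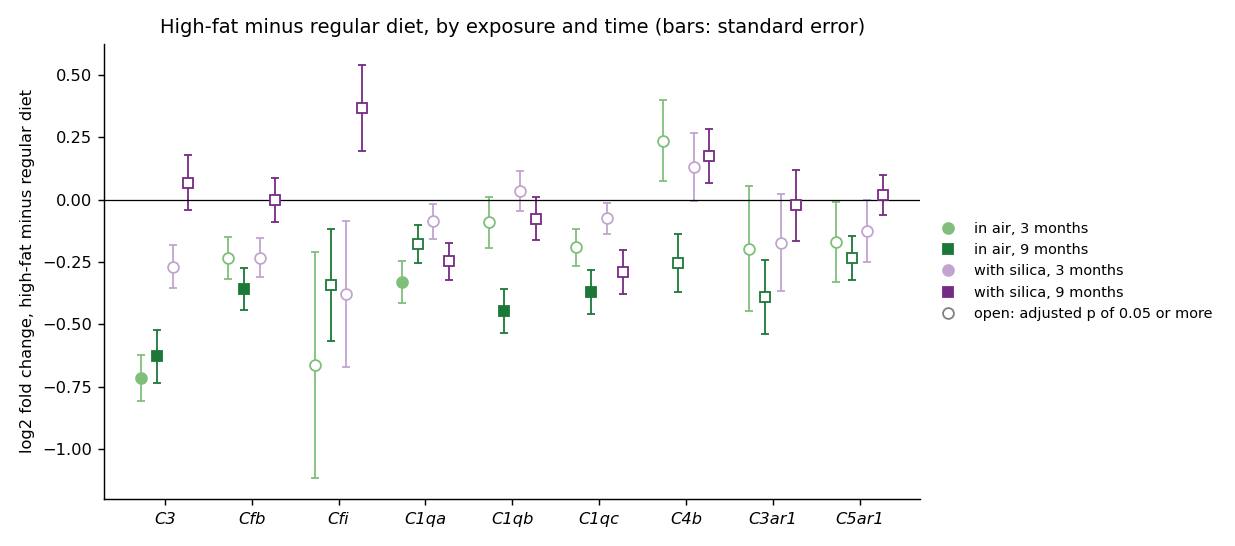
Points give the log2 difference (high-fat minus regular diet) of each complement gene from edgeR, with its standard error as bars, in air and with silica at 3 and 9 months; filled points have an adjusted p below 0.05. The 6 filled points are all in air and below 0, and C3 is at -0.71 and -0.63 in air but at -0.27 and 0.07 with silica.

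The difference of the silica effects between diets was tested directly. At 3 months 0 of 9 members passed (2 of 9 with an unadjusted p below 0.05), and 0.0% of all genes were called by edgeR (0 of 15234, with 990 at an unadjusted p below 0.05, and 1 gene by DESeq2). C3 was at 0.44 ± 0.13 there (edgeR adjusted p = 0.736). At 9 months 1 of 9 members passed (1.09% of all genes): the high-fat rats had a larger effect of silica on C3, by 0.69 ± 0.15 (log2, adjusted p = 0.0257). Of the other members, Cfi was at 0.71 ± 0.28 (adjusted p = 0.242), C4b at 0.43 ± 0.16 (adjusted p = 0.205), C1qb at 0.37 ± 0.12 (adjusted p = 0.148) and Cfb at 0.36 ± 0.12 (adjusted p = 0.152). The C3 call was lost without silica rat RDS_SO_09_119_Lu (0.66, adjusted p = 0.0544), without silica rat RDS_SO_09_120_Lu (0.61, adjusted p = 0.0549), with the ribosomal share as a covariate (0.62, adjusted p = 0.0633) and without the 3 regular-diet silica rats that have C4a-2 counts (0.66, adjusted p = 0.0777). Each of these values is of the same sign and of similar size. At 9 months the C3 diet difference was -0.63 in air and 0.07 with silica. The regular-diet air rats all had 0 counts of C4a-2, the regular-diet silica rats were divided, and every high-fat rat had counts. The difference of the silica effects at 9 months and this difference between libraries therefore cannot be told apart.

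Across the 8 groups the order of mean levels differed between members. For C3, Cfb, Cfi and C5ar1 the 4 air groups held the 4 lowest places and the 9-month silica groups the top 2. C3 ran from 298.9 ± 38.0 CPM (SD, high-fat air, 3 months, n = 5) to 2746 ± 191 CPM (high-fat silica, 9 months, n = 6). Cfi ran from 8.33 ± 3.38 to 162.2 ± 22.6 CPM between the same groups. Among neighbours in the order of C3, the ranges of rats overlapped except between the 2 lowest groups (high-fat air at 3 and 9 months) and between the highest air group and the lowest silica group. C4b had the same split of air and silica groups, and its 4 air groups (33.0 to 39.5 CPM) overlapped with each other. The C1q chains were ordered differently: the 3-month silica groups were on top for all 3 chains, and high-fat air at 9 months was lowest, although neighbouring silica groups overlapped (24.5 ± 1.99 CPM for C1qa, 16.2 ± 2.43 CPM for C1qb and 24.4 ± 1.61 CPM for C1qc). C3ar1 did not follow the exposure alone, since regular-diet air rats at 9 months (8.22 ± 1.36 CPM) had a higher mean than both silica groups at 3 months (7.89 ± 1.09 and 7.01 ± 2.0 CPM), with overlapping ranges.

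Within groups, rats with high C3 also tended to have high Cfb and Cfi. Deviations of log2 CPM from the group mean were correlated for each of the 36 pairs of members over the 42 rats, with rats permuted within groups (two-sided, 100000 resamples) and p-values adjusted over the 36 pairs. The members of a pair share the library, its depth and its scaling factor. Pearson's r was positive in 33 pairs and passed in 6. It was highest for C3 and Cfi (r = 0.682, adjusted p = 3.6e-04, from the smallest p that these permutations can give; Spearman's rho = 0.72, adjusted p = 3.6e-04). For this pair r was 0.597 at 3 months and 0.833 at 9 months, and 0.619 without the 2 rats farthest from the median of C3. C3 and Cfb had r = 0.605 (permutation adjusted p = 0.00612) and rho = 0.583 (adjusted p = 0.00324), with 0.449 and 0.691 at the 2 times and 0.543 without the 2 farthest rats. Cfb and Cfi had r = 0.584 (permutation adjusted p = 0.00378; rho = 0.579; 0.667 and 0.542 at 3 and 9 months; 0.565 without the 2 farthest rats). C5ar1 followed both, with r = 0.489 for Cfb and C5ar1 (permutation adjusted p = 0.0215; rho = 0.542; 0.566 and 0.448 at the 2 times; 0.563 without the 2 farthest) and r = 0.508 for Cfi and C5ar1 (adjusted p = 0.0451; rho = 0.50; 0.509 and 0.505; 0.41 without the 2 farthest). Cfi and C4b had r = 0.461 (permutation adjusted p = 0.0472; 0.532 and 0.369 at the 2 times), but rho was 0.394 (adjusted p = 0.0812) and r fell to 0.304 without the 2 farthest rats. The C1q chains were less tightly tied: C1qa and C1qc had r = 0.366 (permutation adjusted p = 0.112), with rho = 0.457 (adjusted p = 0.03), and r was 0.70 at 3 months and 0.251 at 9 months. The number of pairs that passed was 3 without regular-diet silica rat 46 (3 months) or without regular-diet air rat RDA_SO_09_110_Lu (9 months), and 3 to 8 over all refits without 1 rat.

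Among 12332 other genes with a mean log2 CPM of at least 1, those with the most similar pattern over the 8 group means were found by the root mean square difference of log2 CPM after removing each gene's mean. For C3 these were Prkar1b (0.13), C4bpa (0.15) and Angptl1 (0.17), where the pattern of C3 itself had a root mean square of 1.20. For Cfb they were Ctsz (0.12), Atp8a1 (0.13) and Bub1b (0.13). For Cfi they were Saal1 (0.22), Dhrs9 (0.24) and Kng1 (0.38). C4b was closest to Lilrb4 (0.14), Fat2 (0.15) and Galnt5 (0.16), and C1qb to Tlr2 (0.08), Gpr183 (0.11) and Bub1 (0.11). The receptor C3ar1 was closest to Tlr13, Tnfaip8l2 (both 0.06) and Ccdc136 (0.08), and C5ar1 to Ttyh2 (0.07), Sftpa1 (0.08) and Pla2g1b (0.08). The patterns of Cfb, Cfi and C4b had a root mean square of 0.73, 1.50 and 0.91. For C1qb, C3ar1 and C5ar1 it was 0.43, 0.40 and 0.65. The differences are not scaled to these sizes, so they do not rank closeness between members. With 8 group means per gene, the similar genes describe shape and carry no test.

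The rest of the cascade moved less uniformly. Of 44 other complement genes listed, all were in both tables, and 33 were tested at 3 months and 36 at 9 months; C4a, C8b, Colec10, Colec11, Cpn2, Masp2, Mbl1 and Mbl2 were too low to be tested at either time (at most 29 counts in a rat). On the regular diet at 3 months 11 rose and 4 fell (10.2% of all genes were called higher and 6.6% lower). On the high-fat diet 12 rose and 4 fell (9.23% of all genes called higher and 8.19% lower). At 9 months 19 rose and 6 fell on the regular diet (24.5% of all genes called higher and 20.6% lower). On the high-fat diet 20 rose and 7 fell (26.7% higher and 24.9% lower). The falls at 9 months lie near these shares. C4a-2 is 1 of the genes that rose in each 9-month comparison, and its value on the regular diet is set by the split described above. Their median log2 fold changes were 0.14, 0.24, 0.30 and 0.34 in that order. C1s, C2, C5, C6, C4bpa, C5ar2, Itgam, Itgax and Itgb2 rose in all 4 comparisons, and Colec12, Vtn and Cd93 fell in all 4. The share of all genes called in all 4 comparisons was not computed. C5ar2, Colec12 and Vtn here, and Cd55 and Cd59 below, were named after their values were seen.

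**Figure D5:**
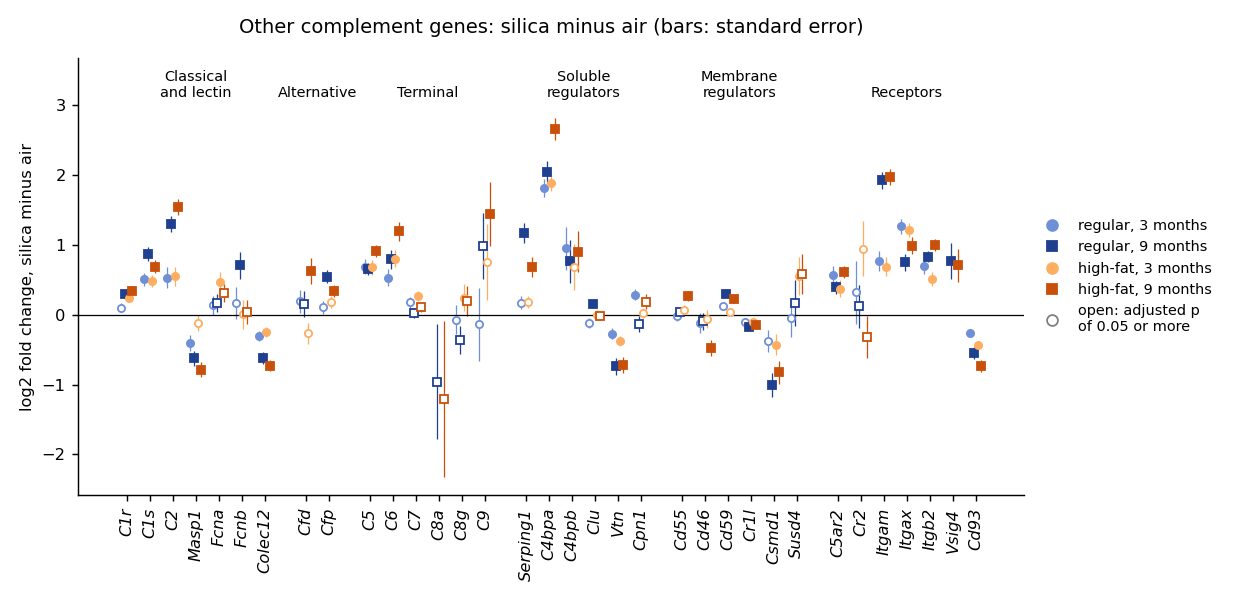
Points give the log2 fold change (silica minus air) with its standard error for other complement genes tested at 9 months, grouped by role, on the 2 diets at 3 and 9 months (C4a-2 and 1 further gene are left off the plot); open points have an adjusted p of 0.05 or more. C4bpa has the highest points (1.82 to 2.66), and Colec12, Vtn and Cd93 are below 0 in all 4 comparisons.

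By role, of the other classical and lectin pathway genes tested, 2 of 7 rose and 2 fell on the regular diet at 3 months, 4 of 7 rose and 1 fell on the high-fat diet, and at 9 months 5 of 8 and 4 of 8 rose and 2 fell on each diet. These counts stand beside the shares of all genes called given above, and the falls at 9 months lie near those called lower. C2, which pairs with C4b in the C3-cleaving enzyme, rose by 0.53 and 0.55 at 3 months and by 1.30 and 1.54 at 9 months. C1s, which cleaves C4 and C2, rose by 0.51 and 0.48 at 3 months and by 0.87 and 0.69 at 9 months. Of the terminal components, C5 rose by 0.66 to 0.91 and C6 by 0.53 to 1.19 in the 4 comparisons. The soluble inhibitor C4bpa, which binds C4b as a cofactor of factor I, went from 46.4 ± 8.23 to 164.8 ± 28.4 CPM on the regular diet at 3 months (n = 4 and 5) and from 36.7 ± 9.64 to 229.9 ± 17.9 CPM on the high-fat diet at 9 months (n = 6 and 6). Serping1, the C1 inhibitor, was at 0.17 and 0.19 at 3 months (not called) and rose by 1.17 and 0.68 at 9 months. It was also higher on the high-fat diet in air at 9 months, by 0.75, the comparison that coincides with the split between libraries. Of the 6 membrane regulators, 0 rose and 0 and 1 fell at 3 months (regular and high-fat diet). At 9 months 1 rose and 2 fell on the regular diet and 2 rose and 3 fell on the high-fat diet (Cd59 rose on both and Cd55 on the high-fat diet), beside the shares of all genes called given above. Of the receptors, Itgam, a chain of complement receptor 3, rose by 0.77 and 0.69 at 3 months and by 1.93 and 1.98 at 9 months. Itgax, a chain of complement receptor 4, rose by 1.27 and 1.22 at 3 months and by 0.75 and 0.99 at 9 months, and Itgb2, their shared partner chain, by 0.51 to 1.00. Cd93, an endothelial and myeloid receptor once proposed to bind C1q, fell by 0.25 to 0.73.

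Markers of several cell types moved with the complement genes, and their part in these results was not tested. Of all genes tested, 10.2 and 9.23% were called higher at 3 months and 24.5 and 26.7% at 9 months (regular and high-fat diet). Those called lower were 6.6 and 8.19% at 3 months and 20.6 and 24.9% at 9 months. Some marker counts lie near these shares, such as 2 of 8 monocyte and interstitial macrophage markers lower at 9 months. On the regular diet at 3 months 7 of 7 neutrophil markers tested rose, and 3 of 7, 6 of 7 and 5 of 7 rose on the high-fat diet at 3 months and on the regular and high-fat diet at 9 months. The summed level of the 8 neutrophil markers, led by S100a9, was 137.3 to 182.9 CPM in air and 529.1 to 804.3 CPM with silica in regular-diet rats at 3 months, and 179.6 to 312.2 against 967.5 to 1233 CPM on the high-fat diet at 9 months. It was 100.4 to 261.6 against 453.2 to 579.3 CPM on the high-fat diet at 3 months and 121.3 to 403.3 against 564.7 to 1484 CPM on the regular diet at 9 months, so air and silica rats did not overlap in any of the 4 comparisons. Alveolar type 2 cells, which make surfactant, had 6, 6, 5 and 6 of 8 markers higher with silica in the same order (regular and high-fat diet at 3 months, then at 9 months) and 0, 0, 1 and 1 lower. Their sum, in which Sftpc was the most abundant gene, also did not overlap between air and silica rats in any of the 4 comparisons. At 3 months it was 16720 to 20030 against 24040 to 32250 CPM (regular diet) and 16270 to 17690 against 22400 to 32340 CPM (high-fat diet). At 9 months it was 17310 to 25220 against 27930 to 33830 CPM and 14980 to 18800 against 29940 to 38510 CPM. The type 2 markers did not all move alike. On the regular diet at 9 months the summed lung markers named above, which include Sftpc, overlapped between air and silica rats. They were at 13240 to 17860 against 15260 to 16880 CPM, with 1 of 5 called higher and 1 lower. Of the alveolar macrophage markers, led by Cd9, 5 of 9, 5 of 9, 7 of 10 and 8 of 10 rose (1 fell in each 9-month comparison), and the sum was 756.7 to 1135 CPM in air and 834.7 to 1544 CPM with silica. Within a diet and time, air and silica rats overlapped in this sum only on the high-fat diet at 3 months (772.7 to 867.9 against 834.7 to 1004 CPM). The sum weighs the most abundant markers most. The median log2 fold change of the alveolar macrophage markers tested was 0.40, 0.60, 1.14 and 1.52 in the same order. Of the monocyte and interstitial macrophage markers, 8 of 10 were in the tables, and 3, 1, 5 and 5 of these rose while 2 fell in each comparison. Their sum, led by Csf1r, was 497.0 to 683.1 CPM in air and 434.9 to 675.1 CPM with silica. Hepatocyte markers, led by Alb, did not pass in any silica comparison, and their mean sum was lower in each silica group than in its air group (112.8 and 93.2, 73.2 and 40.7, 322.5 and 180.2, and 118.9 and 54.0 CPM). The ranges of air and silica rats overlapped in all 4 comparisons and were wide. In regular-diet rats at 9 months the sum was 36.53 to 1336 CPM in air (SD 500) and 21.45 to 419.3 CPM with silica. Of 6 alveolar type 1 cell markers, 6, 5, 6 and 6 fell, and of 5 fibroblast markers tested, 2, 2, 4 and 5 fell. Of 6 airway markers 1, 1, 3 and 4 fell, and of 5 mesothelial markers 0, 0, 2 and 4 fell. No listed marker in the tables was at 0 counts in all 42 rats.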

How the data were processed

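Whole-lung RNA of 42 rats was sequenced, and the authors deposited 2 tables (3 and 9 months) of raw read counts per gene symbol, 1 column per rat. Per the submitters' processing notes the tools were HTSeq 0.6.1, SAMtools 0.1.19, Bowtie2 2.2.9, TopHat2 2.0.9, Trimmomatic 0.35 and bcl2fastq 2.19 with the genome build Rnor 6.0. Per the labels' protocols the libraries were stranded and depleted of ribosomal RNA. Whether counting used strand, and how reads of near-identical copies were assigned, is not given in the sources used here.

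Groups came from the sample labels, and no column of per-sample values was left unused. The counts were tested with edgeR 4.0.16 in R 4.3.3 (TMM scaling, filterByExpr, quasi-likelihood fit and test, two-sided, Benjamini-Hochberg over all genes tested, called at an adjusted p below 0.05). The 4 groups of a time shared 1 fit of its whole table (15234 genes at 3 months, 15276 at 9 months). The difference of silica effects between times came from 1 fit of all 42 libraries (15759 genes). SE is that of the log2 fold change. Levels are TMM-scaled CPM, which are not corrected for gene length. Levels of different genes were therefore not compared, except that marker lists were summed and the most abundant gene of a list was named. Correlations used log2 CPM (prior count 0.5).

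Alternatives were RLE size factors, no low-count filter, the older edgeR fit, DESeq2 1.42.0, limma 3.58.1 voom with sample weights, the ribosomal share as a covariate, only the compared groups, summed C4 symbols, leaving out each rat (84 refits), and, added after the data were seen, each side of the C4a-2 split. The fits were tested on simulated data. The members, the lists and the named-gene rule (all members, the 6 other complement genes with the smallest p in each silica comparison, and the 3 genes of most similar pattern) were chosen with earlier results of these data known. The values of 1 listed complement gene are not reported here, although the counts over the list include it.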

Additional observations from a re-analysis of the deposited data

Results flagged for a closer look

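Of 72 groups of rats (9 genes in 8 groups), 3 held a rat that lay far from the others of its group by Dixon's test, and chance gives such a rat in about 1 of 20 groups. C3 was at 819.2 CPM in regular-diet air rat RDA_SO_09_111_Lu at 9 months, where the next rat was at 620.0 CPM. Cfi was at 82.1 CPM in regular-diet silica rat 46 at 3 months, where the next rat was at 37.0 CPM. C1qc was at 47.5 CPM in high-fat silica rat HFS_SO_09_134_Lu at 9 months, where the next rat was at 37.1 CPM.

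In 9 tests of a difference between silica effects a member passed. At 9 months the effect on C3 was larger on the high-fat than on the regular diet by 0.69 (log2, edgeR). Between times, the effect was larger at 9 months on the regular diet by 0.55 for Cfb, 1.48 for Cfi and 1.31 for C4b. On the high-fat diet it was larger at 9 months by 0.45 for C3, 0.92 for Cfb, 1.90 for Cfi, 1.85 for C4b and 0.70 for C5ar1.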

How the results depend on the processing

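No paired analysis was possible because rats of different groups share no replicate number. Under the alternatives, 2412 values of single members were recomputed: 2307 kept their direction and side of the threshold, 37 lost a call, 15 gained one and 53 changed sign, none of them called. The silica counts stayed within 8 to 9 of 9 members under every alternative run. With silica at 9 months DESeq2 called 2 members between diets and voom 1, against 0. With the ribosomal share as a covariate, the members called between diets in air were 1 at 3 months and 0 at 9 months, and the difference of silica effects between diets at 9 months had 0, as it did without the 3 regular-diet silica rats with C4a-2 counts. Leaving out 1 rat gave 1 to 2 members for diet in air at 3 months, 0 to 2 for diet with silica at 9 months (1 without rat RDS_SO_09_118_Lu and 2 without rat HFS_SO_09_134_Lu), 0 to 2 for the difference between diets at 9 months and 3 to 8 correlated pairs.

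Counts over all genes also moved by more than 1.5 times. Between diets in air, 449 genes at 3 months became 721 (DESeq2), 878 (voom), 761 (only the 2 groups compared) and 92 (covariate), and 2325 at 9 months became 1 (covariate). Between diets with silica, 107 at 3 months became 221 (DESeq2) and 59 (only the 2 groups), and 537 at 9 months became 1 (covariate), 188 and 318 (without the 2 or the 3 silica rats of the C4a-2 split). The difference between diets at 9 months had 167 genes, against 343 (DESeq2), 273 (voom) and 27 (without the 3). With the covariate, 1068 became 284 for the difference between times and 6885 became 4559 for silica at 9 months, both on the regular diet. Leaving out 1 rat moved these counts as well. The 449 became 63 without rat 42, 202 without rat 57, 251 without rat 50, and between 63 and 202 without rats 40, 41 or 52. The 107 became 209, 69, 55 and 60 without rats 45, 46, 63 and 64. The 1068 became 667 without rat 42, and 1681 for the difference between times on the high-fat diet became 1115 without rat 64. The 537 became 260 to 354 without RDS_SO_09_117_Lu, RDS_SO_09_118_Lu, HFS_SO_09_135_Lu, HFS_SO_09_137_Lu, HFS_SO_09_138_Lu or HFS_SO_09_141_Lu. The 167 became 72 to 108 without RDA_SO_09_110_Lu, RDS_SO_09_119_Lu, RDS_SO_09_120_Lu, HFA_SO_09_121_Lu, HFA_SO_09_122_Lu, HFA_SO_09_124_Lu, HFS_SO_09_135_Lu, HFS_SO_09_138_Lu or HFS_SO_09_141_Lu, and 274 and 273 without RDA_SO_09_112_Lu and HFS_SO_09_133_Lu.

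Values near 0 changed sign. For the difference between diets at 3 months, Cfb went from -0.0003 to 0.0021 with RLE size factors and with DESeq2, and C3ar1 to -0.036 with voom; leaving out 1 rat gave -0.0614 to 0.0526 for Cfb, -0.16 to 0.22 for C3ar1 and -0.10 to 0.15 for C5ar1. For diet with silica at 3 months, leaving out 1 rat gave -0.55 to 0.0181 for Cfi and -0.0425 to 0.10 for C1qb. For diet with silica at 9 months, voom gave 0.0054 for Cfb, 0.0082 for C3ar1 and -0.0034 for C5ar1, the covariate gave 0.0858, 0.25 and -0.19, and leaving out 1 rat gave -0.0643 to 0.0872, -0.11 to 0.0919 and -0.02 to 0.0773, and -0.0127 to 0.18 for C3. Without the 2 silica rats at 0 counts of C4a-2, C3ar1 was at 0.12 and C5ar1 at -0.0373 there, and without the other 3, Cfb was at 0.0113. The covariate gave 0.13 for C4b (diet in air at 9 months) and 0.13 for C3ar1 (difference between times, regular diet), and the latter was 0.12 without the 3 silica rats with C4a-2 counts. The cause of these changes was not tested. C3ar1 had the fewest counts of the members (20 to 88 per library), and the part of depth in its calls was not tested.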
